A study of Danio rerio with 9 samples.

Results

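The proteasome subunit genes of 9 zebrafish melanomas were described from read counts per gene. Members were the rows whose gene symbol begins with psm, a letter from a to g and a digit. Left out were psmb8a, psmb9a, psmb12 and psmb13a, which code for inducible or tissue-specific catalytic subunits. The genes psmb10 and psmb11b, described below, are of such types too but were kept. This rule gave 50 of the 30649 named rows: 18 of the core particle (psma and psmb), 28 of the regulatory particles (psmc, psmd and psme) and 4 others (psmf and psmg). All tumours arose in fish labelled p53-/-, mitfa:BRAFV600E and Na-/- that had been injected as embryos with the melanocyte rescue vector MiniCoopR, which carries mitfa and drives a gene of interest in pigment cells. In 5 tumours (labels R157 to R161) that gene was CDK13 R860Q, a mutant of a kinase of RNA polymerase II, and in 4 tumours (R162 to R165) it was EGFP, with CDK13 status given as wild-type. Ages are not given in the sources used here, and no tumour received wild-type CDK13. Whether any tumours shared a fish is not stated, so the p-values cover the spread among these 9 tumours, part of which may be technical.

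The proteasome degrades proteins marked with ubiquitin. Its core particle is a barrel of alpha rings, which gate the entrance, and beta rings, which hold the proteases. The regulatory particle binds the ubiquitin chain, unfolds the protein with a ring of ATPases and removes the chain with its lid. Other activators and an inhibitor can bind the barrel in its place, and dedicated chaperones build each part. Cells keep the subunit genes in step, and in mammals the transcription factor NRF1 raises them together when proteasomes fail to keep up. In cells exposed to interferon, other catalytic subunits replace the constitutive ones.

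Total counts ran from 5518472 to 15120176 per tumour. The human CDK13 row, which checks the labels, held 895, 7239, 376, 1115 and 114 reads in R860Q R157 to R161 and 2, 1, 0 and 5 reads in EGFP R162 to R165. The 9 melanocyte marker genes with a row, among them mitfa, tyrp1b and pmela, summed to between 2505 and 14554 counts per 1000000 of scaled library size (CPM) in R860Q tumours and between 5747 and 12409 in EGFP tumours. In the edgeR comparison below their median log2 fold change was -0.40, beside -0.03 over all genes tested. Of the 9, 7 were lower in value in R860Q tumours and 2 higher, and 0 were called, as over all genes. EGFP R162 stood apart in its scaling factor (0.650, against 0.866 to 1.25 in the others). Skeletal muscle markers summed to 449, 4321 and 3094 CPM in R860Q R158, R159 and R160 and to 1074 in EGFP R162, and to at most 39.1 CPM in the other 5 tumours.

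Proteasome genes took between 0.234% and 0.439% of all counts of a tumour. Of the 50 members 48 had enough reads to be tested. The others were psmb11b, with 2 reads over all tumours, and psmc3ip, with 3 to 19 reads per tumour. RefSeq's table lists beta5tb, a thymus-type catalytic subunit, as another name of psmb11b. The gene psmc3ip matched the rule by its spelling alone, since it codes for a partner of meiotic recombination proteins and not for a subunit. Not all other rows code for constitutive subunits. The genes psmg1, psmg2, psmg3, psmd5, psmd9 and psmd10 code for assembly chaperones and psmf1 for an inhibitor, interferon induces psme1 and psme2 in mammals, and RefSeq lists beta2i, an inducible subunit, as another name of psmb10. The counts held no row with the symbol psma7 or psmd2, though RefSeq gives psma7 as a synonym of psma8.

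No proteasome gene passed the comparison of CDK13 R860Q with EGFP tumours, which asks how gene expression differs when the vector carries the mutant kinase. In edgeR's quasi-likelihood test, with p-values adjusted by Benjamini and Hochberg's method over 15169 genes, 0 of 48 members were called, where 0% of all genes were. The human CDK13 row, which the R860Q vector carries, was not called either (edgeR adjusted p = 0.303), though all R860Q tumours lay above all EGFP tumours. The lack of edgeR calls therefore does not by itself show that the members were unchanged. Unadjusted p-values lay below 0.05 for 1 member (2.08%), which was higher in R860Q tumours, against 6.14% of all genes (1.99% higher and 4.15% lower). DESeq2 called 0 members, where it called 0.454% of all genes, and limma voom called 0 members and 0 of all genes. In none of the 48 did the groups separate, which happened for 1.43% of all genes (0.626% with R860Q above EGFP and 0.804% below). Log2 fold changes ran from -0.49 to 0.68 in 47 of the 48 members, and 45 lay within 0.5 of 0. For 34 members the 95% interval of the log2 fold change stayed within -1 and 1, so that a doubling or halving lay outside it, while for the others changes of that size were not excluded at this depth and spread.

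Members lay on the lower side in R860Q tumours more often than on the higher side, 31 against 17, with a median log2 fold change of -0.20 beside -0.03 over all genes tested, of which 47.2% were on the higher side. This median moved with the tumours used. Without EGFP R162 it was -0.002 with 24 of 49 members on the higher side. Without EGFP R162 and R164 it was 0.11 with 33 of 49. Member levels were highest in these 2 among the EGFP tumours (median log2 CPM less each gene's mean 0.39 and 0.21). Leaving out either or both was thus bound to raise the median. It was -0.10 without EGFP R164 alone, -0.11 without R860Q R158 and -0.26 without EGFP R163. Without the 4 tumours that held muscle RNA, which leaves 2 R860Q and 3 EGFP tumours, the median was 0.10 with 34 of 49 on the higher side. These 4 include the tumours with the lowest and the highest member levels, R860Q R158 (-0.39) and EGFP R162 (0.39). Leaving them out was thus bound to raise the median too, and the part of muscle RNA was not tested. With total counts in place of scaling factors 12 of 48 members were on the higher side and the median was -0.20, while the median of all genes moved to -0.10.

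**Figure D1:**
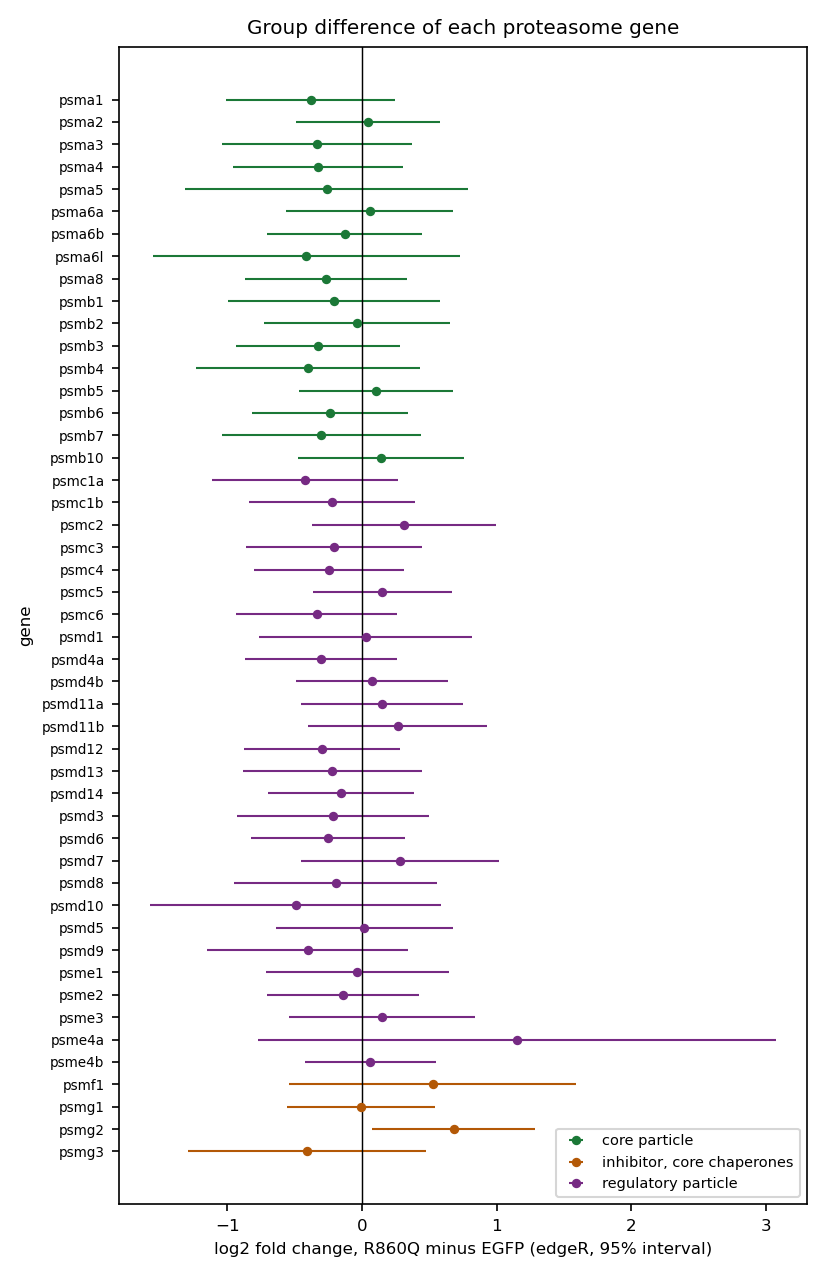
Log2 fold change of each of the 48 tested proteasome genes (rows, by role), R860Q minus EGFP, from edgeR with 95% intervals, coloured by particle. The intervals of 47 genes include 0, and that of psmg2 runs from 0.07 to 1.29.

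Core and regulatory particle genes both had medians somewhat below 0, and no gene of either was called. The 17 tested core genes had a median log2 fold change of -0.26, with 13 on the lower side and a range from -0.41 to 0.14. Of 27 tested regulatory genes 16 lay on the lower side, with a median of -0.16. The difference of the medians was -0.10 on the log2 scale, and it turned with the tumours used. Without EGFP R162 it was 0.13, with a core median of 0.04, without EGFP R164 it was -0.17, and without EGFP R165 it was -0.34, with a regulatory median of -0.002. Within the particles, medians were -0.27 for 9 alpha ring genes, -0.24 for 7 constitutive beta ring genes, -0.22 for 7 ATPases and -0.20 for 9 lid genes. They were 0.03 for 3 base and ubiquitin receptor genes, -0.40 for 3 base chaperones and 0.06 for 5 genes of other activators. The rule groups by symbol, so base chaperones and other activators are counted in the 27 regulatory genes.

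The 3 constitutive proteases of the barrel were psmb5, psmb6 and psmb7, which RefSeq's table also calls beta5, beta1 and beta2. In mammals beta5 cuts after bulky hydrophobic residues, beta2 after basic ones and beta1 after acidic ones. The level of psmb5 was 174, 84.9, 138, 146 and 125.95 CPM in R860Q R157 to R161 and 124, 127, 112 and 137 CPM in EGFP R162 to R165. The EGFP tumours lay close together and inside the R860Q range (log2 fold change 0.10 ± 0.26 SE, edgeR adjusted p = 0.986). The gene psmb6 was at 121, 129.6, 118, 144 and 85.2 CPM in R860Q and 184, 151, 118 and 111 CPM in EGFP tumours (-0.24 ± 0.26, edgeR adjusted p = 0.944). The gene psmb7 was at 112, 48.2, 58.6, 107 and 86.0 CPM in R860Q and 152, 77.2, 103 and 74.5 CPM in EGFP tumours (-0.30 ± 0.34, edgeR adjusted p = 0.944). At these scaled levels EGFP R162 was the highest tumour for both, and EGFP R163 also exceeded every R860Q tumour for psmb6. The remaining EGFP tumours lay within the R860Q range. The top rank of EGFP R162 depended on its low scaling factor. Over total counts psmb6 was highest in EGFP R163 and psmb7 in R860Q R157. Without EGFP R162 the log2 fold changes were -0.08 for psmb6 and -0.05 for psmb7. At the other end, psmb6 was at -0.34 without EGFP R165 and psmb7 at -0.44 without R860Q R157.

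Among the other barrel genes, psma1 of the alpha ring had the lowest p-value. It was at 58.3, 42.8, 37.2, 37.8 and 31.4 CPM in R860Q tumours and 75.1, 38.0, 62.7 and 41.2 CPM in EGFP tumours, a log2 fold change of -0.38 ± 0.28 (SE, edgeR adjusted p = 0.938). The groups overlapped, since R860Q R157 exceeded EGFP R163 and R165. The log2 fold change was -0.19 without EGFP R162 and -0.54 without R860Q R157. The alpha ring gene psma6 has 2 copies in the fish, psma6a at 48.9 ± 12.7 CPM with R860Q and 47.1 ± 14.0 with EGFP, and psma6b at 34.0 ± 7.53 and 37.3 ± 8.84 (SD, n = 5 and 4). A further row, psma6l, for which RefSeq gives psma6b as another name, had the highest within-group SD of log2 CPM of the tested core genes (0.919, next to 0.762 for psma5). It was at 17.8, 6.12, 21.1, 5.09 and 9.10 CPM in R860Q and 19.1, 5.11, 16.7 and 22.4 CPM in EGFP tumours, so that both groups held tumours near 5 and tumours near 20 CPM. It is given here after its values were seen, and how reads were divided among these copies is uncertain.

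In the regulatory particle, the ATPase gene psmc1a had the lowest p-value, at 130.1, 68.4, 93.8, 112 and 97.2 CPM in R860Q tumours and 219, 100.2, 102 and 118 CPM in EGFP tumours (log2 fold change -0.43 ± 0.31 SE, edgeR adjusted p = 0.938). EGFP R162 alone exceeded the R860Q range at these scaled levels, while over total counts it lay below R860Q R157. The log2 fold change was -0.09 without EGFP R162 and -0.54 without EGFP R163. The ATPases psmc6 (-0.34 ± 0.27) and psmc2 (0.31 ± 0.31) stood on opposite sides, with psmc2 at its lowest, 31.1 CPM, in EGFP R162. The log2 fold change of psmc2 was 0.14 without that tumour and 0.55 without EGFP R163. The ubiquitin receptor gene psmd4a was at -0.31 ± 0.26 and its copy psmd4b at 0.07 ± 0.26, the latter at -0.05 without EGFP R162 and with total counts as scale. The lid gene psmd11b was at 0.27 ± 0.30 and its copy psmd11a at 0.15 ± 0.27. The lid's deubiquitinase gene psmd14 was at 29.2 ± 5.62 CPM with R860Q and 32.6 ± 7.48 with EGFP (SD, n = 5 and 4). The base chaperone gene psmd9 was at -0.40 ± 0.34, or -0.13 without EGFP R162 and -0.65 without EGFP R163.

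The share of a copy in the joint reads of a pair overlapped between the groups for all 5 pairs. The a copy held 48.9% to 61.4% of the reads of psma6a and psma6b over the 9 tumours, 51.2% to 74.5% for psmc1, 34.5% to 59.6% for psmd11 and 20.7% to 37.2% for psmd4. The largest differences of the group means were for psmd4, at 24.2% ± 3.62 in R860Q and 29.7% ± 6.94 in EGFP tumours, and for psme4, at 10.6% ± 11.6 and 6.10% ± 5.58 (SD, n = 5 and 4). Exact two-sided permutation p-values over the 5 pairs were between 0.175 and 0.841, and between 0.516 and 0.841 after Benjamini-Hochberg adjustment. The psme4 pair had the widest spread, from 2.24% to 30.8%.

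The 3 members with the highest log2 fold changes were no parts of the core or of the ubiquitin-binding regulatory particle. Of these, psmg2 codes for a chaperone that pairs with psmg1 to build the alpha ring. It was at 93.1, 115, 114, 82.7 and 50.9 CPM in R860Q tumours and at 60.2, 50.4, 57.9 and 59.1 CPM in EGFP tumours. All R860Q tumours but R161 lay above every EGFP tumour. The log2 fold change was 0.68 ± 0.27 (SE), with an unadjusted edgeR p of 0.0313 and an adjusted p of 0.765, and an exact two-sided permutation test of log2 CPM gave p = 0.0556. Leaving out a single tumour moved it between 0.58 and 0.83, and without the 4 tumours that held muscle RNA it was 0.38 ± 0.36 (SE). Those 4 include R860Q R158 and R159, the tumours with the most psmg2, while R860Q R161 stays. A fall was thus bound to follow, and the part of muscle RNA was not tested. Its partner psmg1 was at 38.9 ± 5.58 CPM with R860Q and 39.2 ± 10.5 with EGFP (SD, n = 5 and 4), and psmg3, which acts on the same ring, was at -0.41 ± 0.40.

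The inhibitor gene psmf1 codes for PI31, which binds the barrel. Its level was 28.0, 17.6, 28.6, 22.7 and 72.4 CPM in R860Q and 8.80, 20.1, 34.9 and 29.8 CPM in EGFP tumours. R860Q R161 and EGFP R162 were the extremes, and the others lay between 17.6 and 34.9 CPM. The log2 fold change of 0.52 ± 0.48 (SE, edgeR adjusted p = 0.941) was 0.04 without R860Q R161, 0.25 without EGFP R162 and 0.83 without the 4 tumours that held muscle RNA.

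The activator gene psme4a codes for a copy of PA200, a cap that opens the barrel without ubiquitin. It was at 2.01, 3.21, 19.8, 3.78 and 1.14 CPM in R860Q and 6.60, 1.90, 1.16 and 1.53 CPM in EGFP tumours, from 8 to 136 reads. The log2 fold change of 1.15 ± 0.87 (SE, edgeR adjusted p = 0.938) was -0.08 without R860Q R159 and 1.94 without EGFP R162. Skeletal muscle markers reached 449 CPM or more only in the 4 tumours with the most psme4a, R860Q R158, R159 and R160 and EGFP R162. This cut was set after the values were seen. Within these 4 the orders differed, since psme4a was at 3.78 CPM in R860Q R160 (muscle markers 3094 CPM) and 6.60 CPM in EGFP R162 (1074 CPM). Leaving out these 4 tumours removes the highest psme4a levels, and the log2 fold change was then 0.058 ± 0.64 (SE). The part of muscle RNA in psme4a was not tested. Its copy psme4b had the lowest within-group SD of log2 CPM of the tested members (0.229, next to 0.238 for psma2) and lay between 35.5 and 52.6 CPM (0.06 ± 0.22, or -0.03 with total counts as scale).

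**Figure D2:**
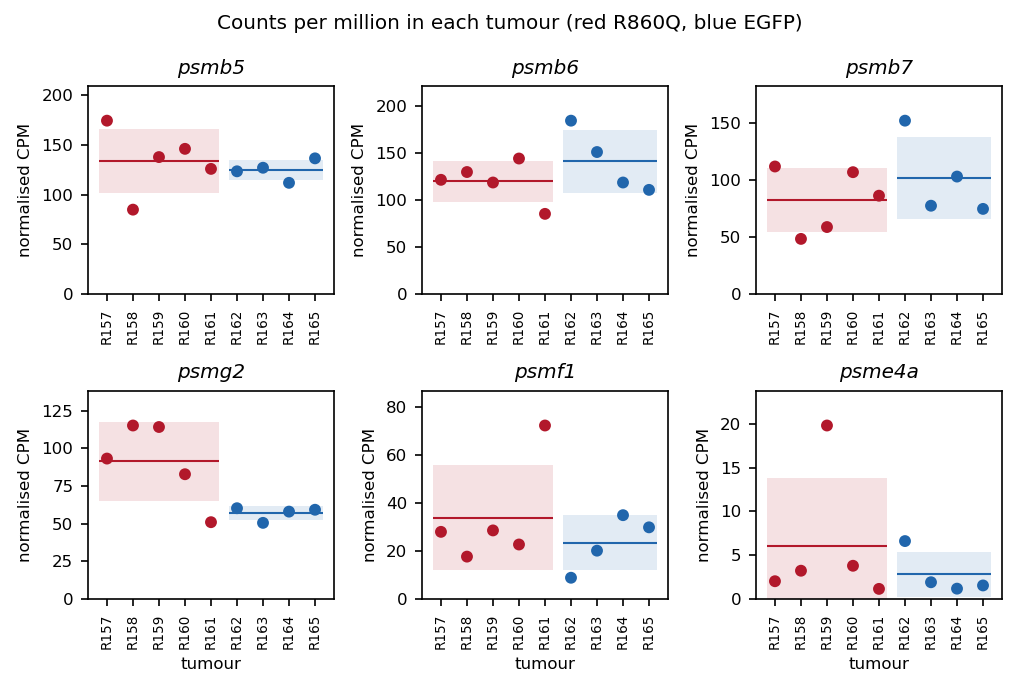
Normalised CPM (vertical axes from 0) of the constitutive protease genes psmb5, psmb6 and psmb7 and of psmg2, psmf1 and psme4a in each tumour (points, R860Q red, EGFP blue), with group means (lines) and SD (bands, not drawn below 0). The psmg2 points of R860Q R157 to R160 lie above all EGFP points, while the psmf1 and psme4a means in R860Q tumours each rest on 1 high tumour.

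In several tumours of both groups most members lay on the same side of their means. Each gene's log2 CPM was set against its own mean over the 9 tumours. In R860Q R157, 42 of 48 members lay above their mean, while in R860Q R158 and in EGFP R163 only 9 did. Over all genes this share was between 49.3% and 52.7% in every tumour. The scaling centres the bulk of genes in each tumour, so this share does not show how far other sets of genes shift together. The median deviation of the members was 0.29, -0.39, -0.02, 0.03 and -0.12 in R860Q R157 to R161 and 0.39, -0.26, 0.21 and -0.07 in EGFP R162 to R165. Both groups held tumours with high and tumours with low proteasome gene levels, and the group ranges overlapped. In bulk tumours fewer cells of a type and less RNA per cell cannot be told apart.

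These deviations depend on the scaling, which shifts all genes of a tumour alike. With total counts in place of scaling factors the median deviation of the members in EGFP R162 was -0.23, and that of all genes there was -0.61. In R860Q R158, 20 of 48 members (41.7%) had their lowest level, as did 11.5% of all genes, and in EGFP R162, 17 members (35.4%) had their highest, as did 17.9% of all genes. The highest level of a member was a median of 2.40 times its lowest, and under 3 times for 36 of 48 members. The SD of log2 CPM within groups had a median of 0.411 over members and 0.566 over all genes, and 41 members lay below the latter. Genes with more reads have less counting error, and reads per gene were not matched in this.

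**Figure D3:**
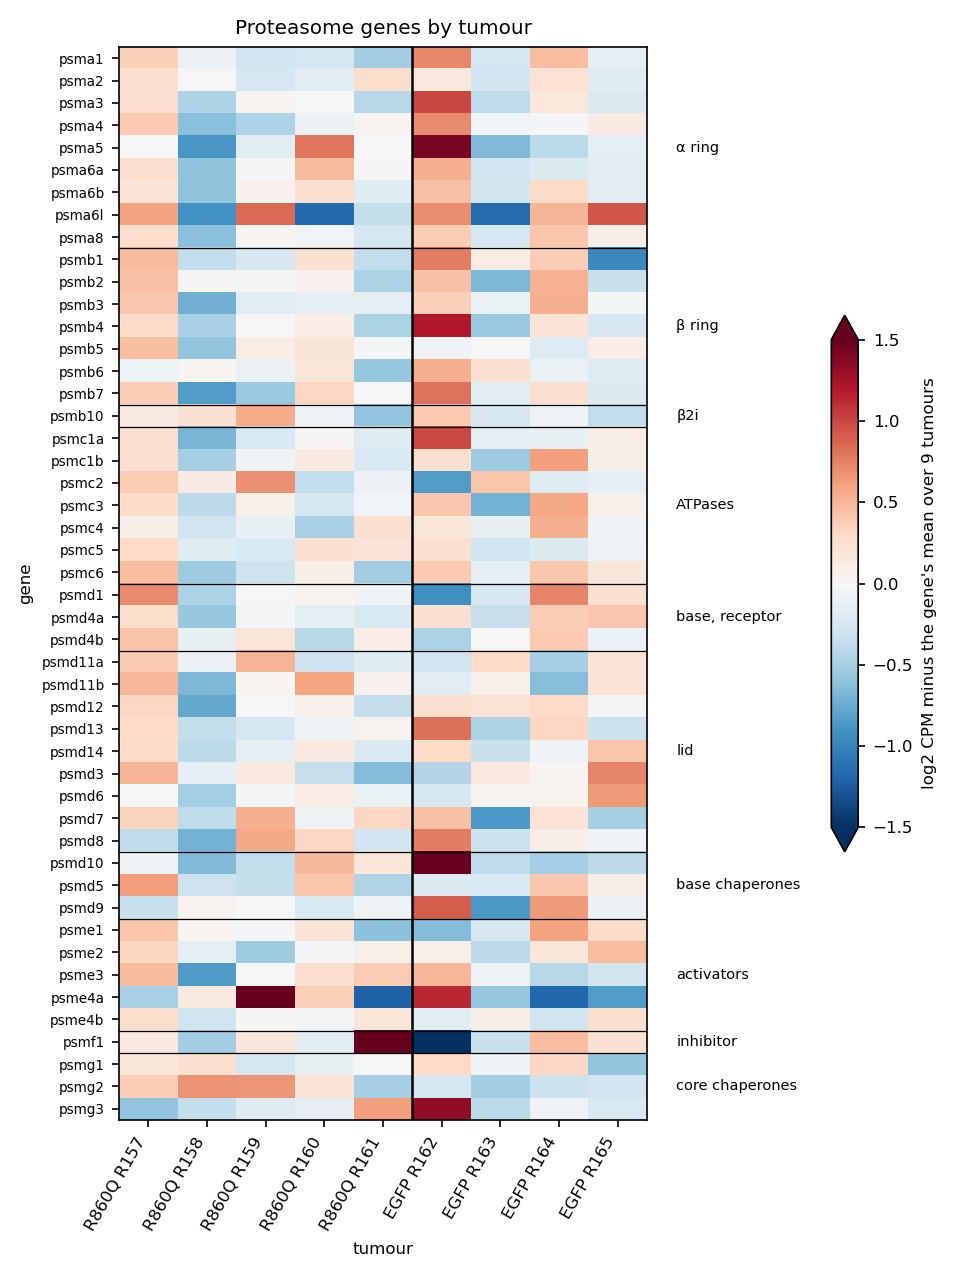
Log2 CPM of the 48 tested proteasome genes (rows, by role) in 9 tumours (columns, R860Q left of the line), each less the gene's mean over the tumours, with values past the ends of the colour scale in the end colour. Most rows are red in R860Q R157 and blue in R860Q R158, and EGFP R162 holds both strong reds and strong blues.

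EGFP R162 was the tumour in which core and regulatory genes parted most. There 16 of 17 core genes lay above their mean, with a median deviation of 0.54, and 17 of 27 regulatory genes, with a median of 0.24. The core median less the regulatory median was 0.30 there and -0.25 to 0.05 elsewhere. It was lowest in EGFP R165, where 4 of 17 core genes and 15 of 27 regulatory genes lay above their mean. In R860Q R157 to R161 the difference was -0.03, -0.20, -0.01, 0.02 and -0.17, inside the range of the EGFP tumours.

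**Figure D4:**
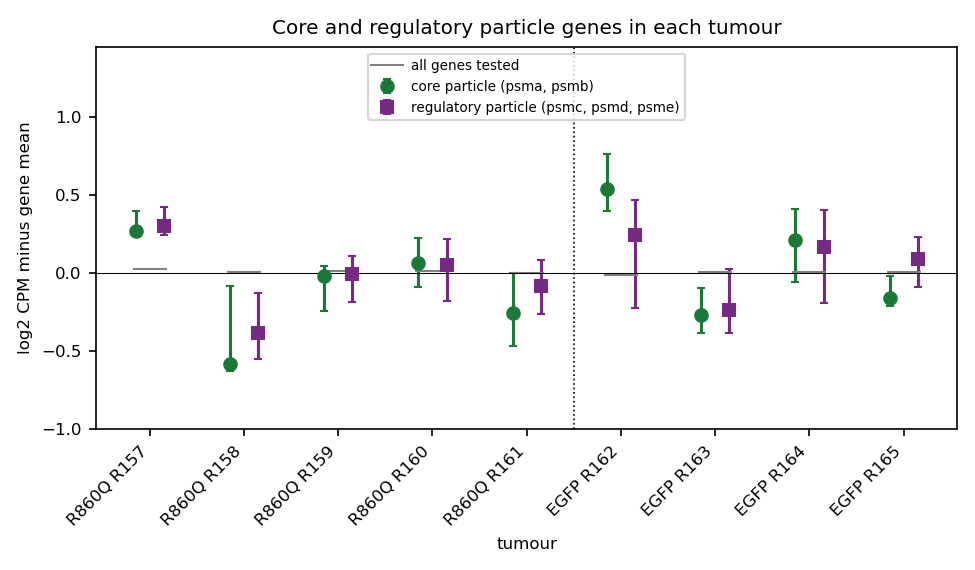
Median log2 CPM less the gene's mean in each tumour for 17 core (green circles) and 27 regulatory genes (purple squares), with bars from the lower to the upper quartile of the genes and grey dashes for the median of all genes tested. Core and regulatory medians shift together in most tumours, and in EGFP R162 they stand at 0.54 and 0.24.

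Single genes in EGFP R162, given here after their values were seen, went both ways. The alpha ring gene psma5 was at 308 CPM there, against 62.5 to 201 CPM in the other tumours. The base chaperone gene psmd10, known as gankyrin, was at 112 CPM, against 21.5 to 47.7 CPM elsewhere. The beta ring gene psmb4 was at 301 CPM, against 88.6 to 157.2 CPM elsewhere. In the other direction, psmd1, the scaffold of the regulatory base, was at 42.8 CPM, against 58.7 to 135 CPM elsewhere. The activator subunit gene psme1 was also at its lowest there, 11.7 CPM, against 12.1 to 28.4 CPM elsewhere. It did not stand apart, since R860Q R161 was at 12.1 CPM. The deepest of these rows, psma5, had 1261 reads in EGFP R162 and the shallowest, psme1, had 48. This library's low scaling factor, given above, raises the levels of all its genes alike. Over total counts psma5 and psmb4 were still highest there, but R860Q R160 was close below for psma5 and R860Q R157 for psmb4. On that scale psmd10 stayed highest in EGFP R162, and psmd1 and psme1 stayed lowest. The muscle RNA of this library is given above too, and its part in these values was not tested.

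Members tied to the interferon response were set beside the inducible proteases left out by the rule. In the RefSeq assembly GRCz12tu the genes psmb13a, psmb8a, psmb12 and psmb9a follow each other with no protein-coding gene between them. All 4 held 0 reads in R860Q R157 to R160 and in EGFP R165, where 0 reads allow up to 0.224, 0.311, 0.437, 0.436 and 0.164 CPM (3 counts, counting error only). These limits are for reads assigned to these rows, and whether other alleles of the genes would be counted there was not tested. In R860Q R161 and EGFP R162 to R164 each had at least 26 reads. The gene psmb10 had reads in every tumour, at levels of 36.8, 39.3, 49.7, 32.3 and 22.2 CPM in R860Q and 44.3, 28.4, 32.3 and 26.0 CPM in EGFP tumours (log2 fold change 0.14 ± 0.28 SE, edgeR adjusted p = 0.981). The activator genes psme1 and psme2, which interferon induces in mammals, were at -0.03 ± 0.31 and -0.14 ± 0.25 (edgeR adjusted p = 0.998 and 0.979). The 10 listed interferon response genes had a median log2 fold change of -0.84, with 9 lower in value in R860Q tumours. Of these edgeR called 0, as it did over all genes, with 4 at an unadjusted p under 0.05 (6.14% of all genes). DESeq2 called 2 (0.454% of all genes). The groups separated for 3 (mxb, isg15 and ifit10, all with R860Q below EGFP), which happened for 1.43% of all genes. Beside them, the median was -0.75 for 9 macrophage markers, 7 of them lower in R860Q tumours and csf1ra and mfap4 higher. It was -1.66 for 7 T and NK lymphocyte markers, 6 of them lower and runx3 higher. Of these lists edgeR called 0, with 2 and 5 genes at an unadjusted p under 0.05 (6.14% of all genes). DESeq2 called 1 gene of each (0.454% of all genes). The groups separated for 1 macrophage and 0 lymphocyte markers (1.43% of all genes). The part of these cells was not tested. The constitutive genes psmb5, psmb6 and psmb7 were present in all 9 tumours, between 48.2 and 184 CPM.

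Other genes of the pathway, in lists of ubiquitin and its enzymes, of proteasome partners and of the NRF transcription factors, held no gene called by edgeR or DESeq2, and 1 gene at an unadjusted edgeR p under 0.05, beside 0%, 0.454% and 6.14% of all genes. Of 15 tested genes of ubiquitin, its activating enzymes and ligases 9 lay on the higher side (median log2 fold change 0.10), with the ligase ube3a at 0.62 ± 0.44 (SE), high in R860Q R161 alone (264 CPM, against 47.9 to 111 elsewhere), and the conjugating enzyme ube2a at -0.38 ± 0.30. Of 20 maturation factors, receptors and shuttles 13 lay on the lower side (median -0.05), with the ubiquitin receptor adrm1 at 0.41 ± 0.25 and nploc4, a cofactor of the unfoldase vcp, at 0.38 ± 0.25. Of 18 genes of the NRF1 and NRF2 pathways 9 lay on each side (median 0.03).

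The regulators of proteasome genes themselves overlapped between the groups. The zebrafish NRF1 genes nfe2l1a and nfe2l1b, named for their role, were at 0.15 ± 0.34 and -0.03 ± 0.40 (SE). The protease gene ddi2, which in human cells cuts NRF1 to its active form, was at 19.2, 15.6, 17.3, 13.1 and 9.95 CPM in R860Q and 17.9, 28.0, 21.0 and 19.9 CPM in EGFP tumours. All EGFP tumours but R162 lay above every R860Q tumour, with a log2 fold change of -0.53 ± 0.26 and an edgeR adjusted p of 0.830. The NRF2 target gclc, which starts glutathione synthesis, was at 0.75 ± 0.26, with an unadjusted edgeR p of 0.0151 and an adjusted p of 0.718. Its levels were 31.0, 20.7, 32.8, 35.3 and 19.3 CPM in R860Q and 14.4, 20.1, 16.6 and 15.1 CPM in EGFP tumours, where EGFP R163 lay above R860Q R161.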

How the data were processed

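Per the labels' protocols, dissected melanomas gave ribosome-depleted total RNA, and randomly primed libraries were sequenced as 100-bp pairs. Bowtie, HTSeq and the build danRer10 (GRCz10) are named, without versions, per the submitters' processing notes. Since the counting's strand setting is not given in the sources, reads of overlapping genes may not be separated. The values deposited by the authors are unnormalised counts for 30649 gene symbols per tumour. Gene names and order were looked up in RefSeq's table for GRCz12tu, which held 49 of the 50 member symbols. No transcript lengths were used, so levels are compared within a gene only, and the planned naming of members by level per coding length was not made.

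Counts were scaled by TMM in edgeR 4.0.16 (R 4.3.3) after filterByExpr (minimum count 10, total 15), and groups compared by its quasi-likelihood test with robust dispersion over all 15169 genes, with Benjamini-Hochberg adjustment at 0.05. SEs are the log2 fold change over the root of F. Log2 CPM used a prior count of 2. Exact two-sided tests used all ways to choose 5 of 9 tumours (smallest p 0.00794). The edgeR test was checked on counts simulated from its fitted dispersions, for its fold change estimates and its calls among unchanged genes. No power for the members is given by this. No pair of tumours agreed within sampling noise (lowest chi-square per degree of freedom 42.9).

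Named were psmb5, psmb6, psmb7, the 5 members with the smallest p on each side, pairs of copies, the rows left out and 2 genes a pathway list. Further genes, among them psmd14, psmb10, psmg1, psmg3, psme1 and psme2, were named outside this selection. Members and lists were chosen with earlier results of these data known. Alternatives were DESeq2 1.42.0, limma 3.58.1 voom, other scaling and filters, and leaving tumours out.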

Additional observations from a re-analysis of the deposited data

Results flagged for a closer look

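In a test for a lone extreme sample in each group of tumours, run for 19 named members and 4 median scores in both groups (46 tests, of which chance picks about 1 in 20), psma6a in EGFP R162 was the sample that stood out. It was at 68.0 CPM there and between 38.2 and 41.8 CPM in the other EGFP tumours. The scaling factor of EGFP R162 was 0.650. Over total counts the psma6a reads there (278 of 6317580) lay inside the range of the other EGFP tumours. This 1 flag in 46 tests is no more than chance picks.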

How the results depend on the processing

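No paired analysis was possible because no replicate number occurs in both groups. No member was called under any of the 19 alternatives, of which 2 (total counts as scale, and leaving out the 4 tumours with muscle RNA) were chosen after seeing the data. Over all genes edgeR called 0, limma voom 0 and DESeq2 68. With tumours left out edgeR called 1 without EGFP R165 (leave-one-out range 0 to 1), 1 without EGFP R162 and R164, and 1 without the muscle tumours. With single tumours left out, the members' median log2 fold change ran from -0.26 to -0.002, the core median from -0.39 to 0.04, the regulatory median from -0.28 to -0.002 and the core minus regulatory difference from -0.34 (without EGFP R165) to 0.13 (without EGFP R162). Without EGFP R162 and R164 these were 0.11, 0.19, 0.04 and 0.14, and without the muscle tumours 0.10, 0.13, 0.08 and 0.05. Fewer tumours enter there, and EGFP R162 and R164 were the EGFP tumours with the highest member levels. The muscle tumours include R860Q R158 and EGFP R162, the tumours with the lowest and the highest member levels of all. The cause was not tested.

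Of 361 values of the 19 named members under alternatives 340 kept their direction and 21, of 12 members, turned it. Without EGFP R162 and R164 the log2 fold change was 0.071 for psma1, 0.19 for psma6b, 0.12 for psmb7, 0.13 for psmc1b, 0.32 for psmd9, -0.14 for psmd11a and -0.12 for psme4b. Without the muscle tumours it was 0.052 for psma6b, 0.23 for psmb7 and 0.10 for psmc1a. With total counts it was -0.048 for psmd4b and -0.027 for psme4b. With single tumours left out it ran from -0.069 to 0.28 for psma6a, -0.014 to 0.23 for psmb5, -0.054 to 0.24 for psmd4b, -0.080 to 1.94 for psme4a and -0.024 to 0.16 for psme4b. The lowest adjusted p of a named member under any alternative was 0.449 (psmg2, DESeq2). The comparison had 5 and 4 tumours and a common biological coefficient of variation of 0.523 over all genes tested. Changes of single members inside their 95% intervals were not excluded. An interval that leaves out 0 need not pass adjustment, as for psmg2 (edgeR adjusted p = 0.765).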
